A study of Homo sapiens with 10 samples.

Results

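The genes described here are the ligands and receptors of the tumour necrosis factor (TNF) superfamily in THP-1 macrophages. They were chosen by symbol: a transcript cluster counted if the only gene symbol in its annotation began with TNFSF or TNFRSF or was TNF, LTA, LTB, LTBR, CD40, CD40LG, FAS, FASLG, CD27, CD70, NGFR, EDAR or RELT. This gave 47 of the 33297 clusters on the array (21214 have a symbol), and the cluster with the highest mean was kept for each gene. The result is 40 genes, of which 14 are ligands and 26 are receptors. CD40LG had no cluster with its symbol. TNFSF12 and TNFSF13 share 1 cluster with each other, and TNFRSF10C and TNFRSF6B each share theirs with a neighbouring gene, so these were not measured alone.

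THP-1 cells come from a human monocytic leukaemia and become macrophage-like after exposure to the phorbol ester PMA. All cells received PMA (160 nM in the study's methods) for 24 h and were then given the solvent DMSO, punicalagin (10 µM in the study's methods), myricetin or quercetin for another 24 h. Punicalagin is an ellagitannin of pomegranate, and myricetin and quercetin are flavonols. The sources used here give no dose for the flavonols. There were 3 DMSO and 3 punicalagin arrays, 1 each from cells at passages 6, 7 and 8, and 2 myricetin and 2 quercetin arrays, 1 each from passages 7 and 8. The arrays were Affymetrix Human Gene 1.0 ST, and every level below is a deposited log2 intensity after robust multi-array averaging (RMA), on which 1 unit is a 2-fold change. The levels of different genes rest on different probes and were not compared.

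Ligands of the TNF superfamily are made mostly as trimers in the cell membrane, and some, TNF among them, are cut free by proteases. Their receptors carry cysteine-rich repeats outside the cell. One class has a death domain inside the cell and can lead to caspase activation, another binds the TRAF adaptors and activates NF-κB and MAP kinases, and decoy receptors bind ligand without a full signal. In macrophages, TNF is a principal inflammatory cytokine, and its 2 receptors TNFRSF1A and TNFRSF1B are both commonly expressed.

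Defining genes of macrophages and monocytes were well above the rest of the array. Of 9 measured, 8 lay above the upper quartile on every array, and the remaining gene, CD14, lay above the median on every array. Their mean level was 9.31 to 9.59 with DMSO, 9.66 to 10.4 with punicalagin, 9.55 to 9.64 with myricetin and 9.61 to 9.77 with quercetin. The mean of 6 T cell markers was 3.89 to 4.09 over the 10 arrays. CD3D, CD3E, CD3G and CD2 lay below the median on all of them, CD8A above it on 2 and LCK on 1. The mean was 4.21 to 4.70 for 4 B cell markers, 4.27 to 4.82 for 4 NK cell markers and 5.20 to 5.58 for 5 fibroblast and epithelial markers. Among these, NKG7 and COL1A1 lay above the median on every array and KRT18 above the upper quartile. The mean of the macrophage markers moved with the treatments by the amounts given, but single markers went different ways. SPI1 was 9.29 in mean with DMSO, 8.82 with punicalagin, 8.95 with myricetin and 8.76 with quercetin. LYZ was 9.42 with DMSO, 9.36 with punicalagin and 8.37 with myricetin. The other markers were higher in mean with punicalagin and with myricetin than with DMSO. The part of the macrophage markers in the results below was not tested. In such bulk RNA, fewer cells of a type and less RNA per cell cannot be told apart. The DMSO array of passage 6 was above both other DMSO arrays in 25 of the 40 genes (62.5%), against 45.1% of all clusters with a symbol. It was below both in 9 (7361 of the 21214 clusters). The differences in TNF, CD70, TNFSF13B, TNFSF15, CCL20 and BCL2A1 are also given without it. It was also 0.63 to 0.75 above the mean of the other DMSO arrays in TNFSF14, TNFRSF1B, TNFRSF9 and TNFRSF12A.

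Quercetin changed 2 of the 40 genes against DMSO, both of them ligands. TNFSF15 (also named TL1A, a ligand that costimulates T cells through the receptor TNFRSF25) rose 3.54-fold, and TNFSF4 (OX40L, the ligand of the T cell receptor OX40, TNFRSF4) fell 1.54-fold. These 2 genes are 5% of those measured, and 3.92% of all clusters were called in the same comparison. No gene of the superfamily passed the threshold, an adjusted p of 0.05 in limma over 21214 clusters, with punicalagin (2.33% of all clusters did) or with myricetin (0.509% of all clusters did). At an unadjusted p under 0.05 there were 5 genes with punicalagin (12.5%, against 12.3% of all clusters), 3 with myricetin (7.5%, against 8.62%) and 6 with quercetin (15%, against 14.8%). The study's methods name an analysis of variance with a 2-fold limit. Run here for the 2 groups, for which it is the same as a t-test with a shared variance, the methods' t-test also called 0 genes with punicalagin, both before and after adjustment. The 3 comparisons share the DMSO arrays and are not independent.

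The stretches before the RefSeq start sites of the 2 changed ligands and of TNF are shown because these are the genes on which the ligand results turn. Each is 250 bases of GRCh38.p14, read 5′ to 3′ on the strand of the gene, and capitals mark a match to the AP-1 motif TGANTCA. TNFSF15 lies on the minus strand of chr9:114792531-114792780, TNFSF4 on the minus strand of chr1:173205533-173205782 and TNF on the plus strand of chr6:31575315-31575564.
TNFSF15: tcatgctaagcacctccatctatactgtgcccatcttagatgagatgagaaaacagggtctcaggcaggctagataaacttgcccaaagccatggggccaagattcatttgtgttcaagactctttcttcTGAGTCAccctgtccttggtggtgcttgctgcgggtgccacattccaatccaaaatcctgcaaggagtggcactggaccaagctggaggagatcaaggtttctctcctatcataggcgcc
TNFSF4: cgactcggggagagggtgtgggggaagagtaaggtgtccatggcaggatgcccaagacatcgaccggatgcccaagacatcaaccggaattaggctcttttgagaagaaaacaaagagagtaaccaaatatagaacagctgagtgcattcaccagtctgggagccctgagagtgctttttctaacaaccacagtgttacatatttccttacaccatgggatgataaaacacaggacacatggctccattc
TNF: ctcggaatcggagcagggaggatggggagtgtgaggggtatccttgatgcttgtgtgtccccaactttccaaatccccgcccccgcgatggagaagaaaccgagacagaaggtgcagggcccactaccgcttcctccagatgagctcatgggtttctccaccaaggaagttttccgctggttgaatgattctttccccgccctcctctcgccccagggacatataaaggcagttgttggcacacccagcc
The match in TNFSF15 lay 120 bases before the start. Both strands were searched. The RefSeq table holds 35116 such promoter stretches, with several for some genes, and 6.57% of them held this motif. Of the 36 stretches of 27 superfamily genes it was in 6, which belong to 5 genes, CD27, FAS, TNFRSF9, TNFSF14 and TNFSF15. A κB motif, searched as GGG, then any 3 bases, then TTCC, was held by 5.67% of all stretches and by 4 of these 36, which belong to 3 genes, LTA, LTB and TNFRSF9. Neither motif, in the exact letters searched, was in the stretches of TNFSF4 and TNF. A site that departs from these letters would be missed, so this does not show that such sites are absent. AP-1 is a factor that PMA is known to activate. A match here is only of letters, and binding was not measured.

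TNFSF15 was 6.59, 5.90 and 5.76 with DMSO at passages 6, 7 and 8, 7.45, 7.45 and 6.40 with punicalagin at the same passages, 6.20 and 6.43 with myricetin at passages 7 and 8, and 7.85 and 7.96 with quercetin at passages 7 and 8. Both quercetin arrays lay above all 8 others, and the punicalagin arrays of passages 6 and 7 were next. The difference of quercetin from DMSO was 1.82 (SE 0.31, 95% interval 1.14 to 2.51, adjusted p = 0.00709, limma). It was 1.95 between the arrays of passage 7 and 2.20 between those of passage 8, and 2.08 without the DMSO array of passage 6. Without the quercetin array of passage 7 the adjusted p was 0.0726, and without that of passage 8 it was 0.0984. In the other 8 fits that left out 1 array the call was kept.

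Punicalagin gave a difference of 1.02 in TNFSF15 (SE 0.32, interval 0.31 to 1.73), which did not pass (adjusted p = 0.183). The groups overlapped, since the punicalagin array of passage 8 lay below the DMSO array of passage 6. Without that DMSO array the difference in TNFSF15 was 1.27 with punicalagin and 0.49 with myricetin. Within passages the differences of punicalagin were 0.86, 1.55 and 0.64, and with passage as a block the adjusted p was 0.0418. TNFSF15 passed with punicalagin in 2 of 13 alternative fits, with adjusted p from 0.0318 to 0.526. With myricetin the difference was 0.23 (interval -0.45 to 0.92, adjusted p = 0.939).

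TNFSF4 was 4.39, 4.47 and 4.71 with DMSO at passages 6, 7 and 8, 4.50, 4.42 and 4.72 with punicalagin at the same passages, 4.36 and 4.46 with myricetin at passages 7 and 8, and 3.92 and 3.87 with quercetin at passages 7 and 8. Both quercetin arrays lay below the 8 others, and those of the other 3 groups overlapped. Quercetin differed from DMSO by -0.63 (SE 0.15, interval -0.95 to -0.30, adjusted p = 0.0391) and was also below punicalagin, with a difference of 0.65 for punicalagin minus quercetin (interval 0.33 to 0.98, adjusted p = 0.0333). This was the only superfamily gene called between punicalagin and quercetin (2.5%, against 3.91% of all clusters). The levels were not far above the lower quartile of the arrays, and the calls were near the threshold. Against DMSO the gene passed in 3 of 10 fits that left out 1 array, with adjusted p up to 0.320. It was lost without either quercetin array, either myricetin array, the DMSO array of passage 7 or of passage 8, or the punicalagin array of passage 6. Against punicalagin it passed in 4 of 10, with adjusted p up to 0.273.

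**Figure D1:**
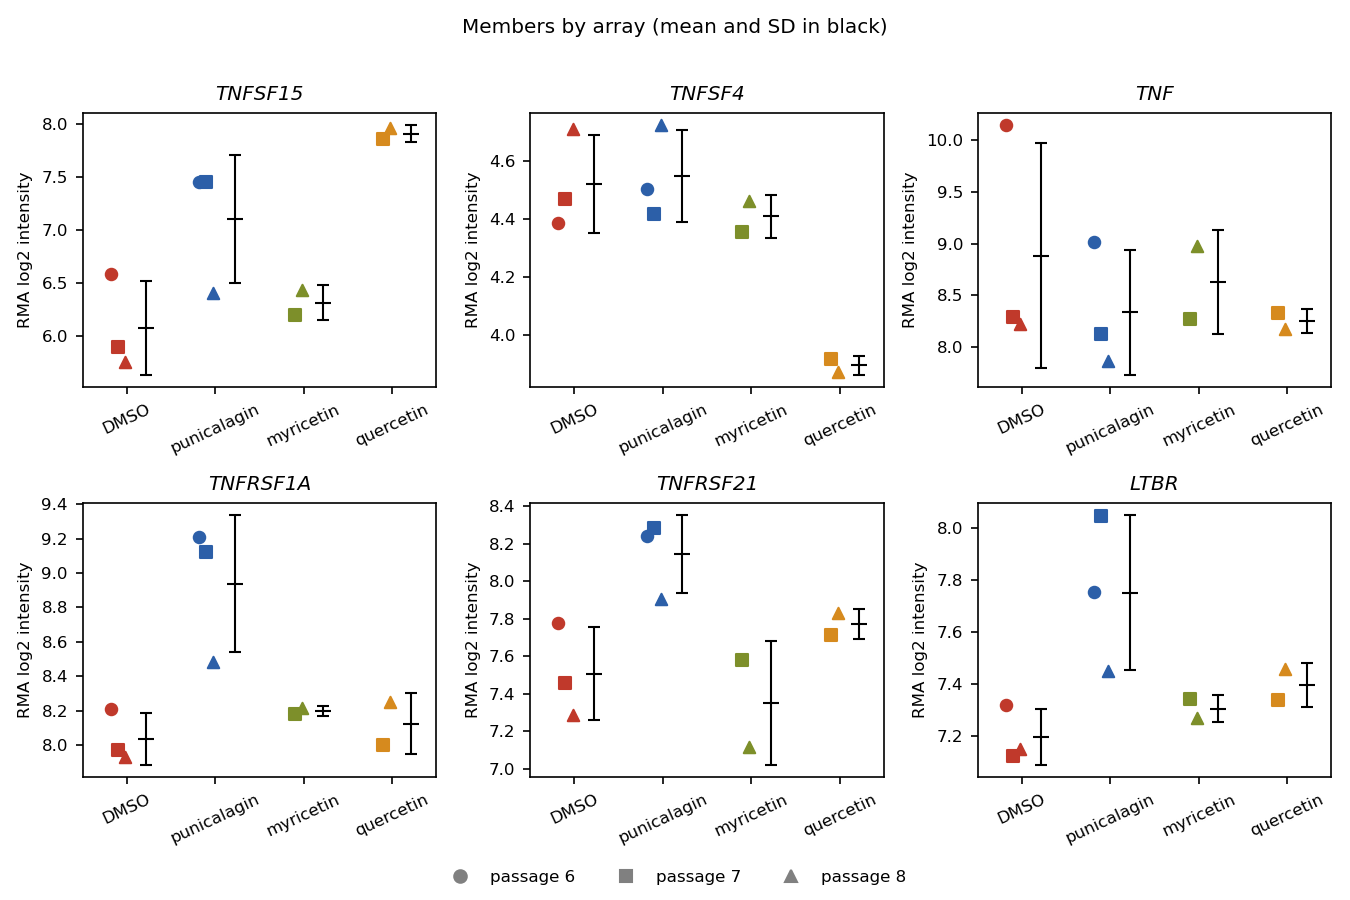
Level (RMA log2 intensity, vertical axis) of 6 superfamily genes on the 10 arrays by treatment, with the passage as the shape of the point and the mean and SD of each group in black. The quercetin arrays stand above all others in TNFSF15 (7.85 and 7.96) and below all others in TNFSF4 (3.92 and 3.87), and the DMSO array of passage 6 stands above all others in TNF (10.15).

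TNF itself was 10.15, 8.29 and 8.22 with DMSO at passages 6, 7 and 8, 9.01, 8.13 and 7.86 with punicalagin at the same passages, 8.27 and 8.98 with myricetin at passages 7 and 8, and 8.33 and 8.17 with quercetin at passages 7 and 8. The DMSO array of passage 6 was the highest of all 10, and the other 9 lay between 7.86 and 9.01. The difference from DMSO was -0.55 with punicalagin (SE 0.50, interval -1.68 to 0.58, adjusted p = 0.751), -0.26 with myricetin (SE 0.51, interval -1.38 to 0.86, adjusted p = 0.965) and -0.63 with quercetin (SE 0.51, interval -1.76 to 0.49, adjusted p = 0.671). These intervals allow changes of 2-fold or more in the negative direction. Without the DMSO array of passage 6 the difference in TNF was 0.08 with punicalagin, 0.37 with myricetin and -0.0042 with quercetin. The clusters of the array that carry the symbol TNF (3 in number) hold identical values, so they are 1 measurement.

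CD70, the ligand of CD27, was 6.74, 5.74 and 5.69 with DMSO at passages 6, 7 and 8, 5.63, 5.32 and 5.66 with punicalagin at the same passages, 5.72 and 5.77 with myricetin at passages 7 and 8, and 5.13 and 5.54 with quercetin at passages 7 and 8. All punicalagin and all quercetin arrays lay below all DMSO arrays, but the DMSO array of passage 6 was about 1 unit above the other 2. The difference was -0.52 with punicalagin (SE 0.27, adjusted p = 0.514) and -0.72 with quercetin (SE 0.28, adjusted p = 0.229), and neither passed. Without that DMSO array the difference in CD70 was -0.18 with punicalagin and -0.38 with quercetin. TNFSF14 (LIGHT, which binds TNFRSF14 and LTBR) was 6.83, 6.14 and 6.26 with DMSO at passages 6, 7 and 8, 6.37, 6.64 and 6.02 with punicalagin at the same passages, 6.13 and 6.14 with myricetin at passages 7 and 8, and 6.90 and 6.91 with quercetin at passages 7 and 8. Its quercetin arrays were the highest of the 10, with a difference from DMSO of 0.50 (SE 0.22, adjusted p = 0.314).

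TNFSF13B (BAFF, a survival factor of B cells) was 4.91, 5.73 and 5.87 with DMSO at passages 6, 7 and 8, 5.12, 5.26 and 5.03 with punicalagin at the same passages, 4.82 and 5.15 with myricetin at passages 7 and 8, and 5.50 and 5.24 with quercetin at passages 7 and 8. Here the DMSO array of passage 6 was the lowest of the DMSO arrays, in contrast to TNF and CD70. The difference of myricetin from DMSO was -0.52 (SE 0.25, adjusted p = 0.608) over all arrays and -0.82 without the DMSO array of passage 6. On passages 7 and 8 alone, where it was -0.91 and -0.72 within passage, this was the 1 superfamily gene that passed.

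The other ligands are given by their ranges over the 10 arrays. For the lymphotoxins, which act in lymphoid organs, these were LTA from 4.49 to 4.94 and LTB from 6.29 to 6.84. They were TNFSF10 from 4.75 to 5.69 (TRAIL, which binds death receptors), TNFSF8 from 3.72 to 4.58 (the ligand of CD30) and TNFSF9 from 5.91 to 6.10 (the ligand of 4-1BB). LTA had 3 clusters and LTB 4, and not all held the same values. Another LTB cluster ran from 4.90 to 5.60 and differed from DMSO by -0.51 with quercetin, against -0.23 in the reported one. Another LTA cluster differed by 0.26 with myricetin, against -0.03 in the reported one, and none of these passed. FASLG, the ligand of FAS, lay below the lower quartile of every array, TNFSF18 (the ligand of GITR) below that of 8 arrays and TNFSF11 (RANKL) below that of 4, so that little can be read from their differences. TNFSF18 was higher than in DMSO on all punicalagin and all myricetin arrays, by 0.48 (adjusted p = 0.248) and 0.51 (adjusted p = 0.373). Over all 14 ligands, the median difference was -0.11 with punicalagin, -0.03 with myricetin and -0.13 with quercetin, and over all clusters it was -0.05, 0.00 and -0.04.

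**Figure D2:**
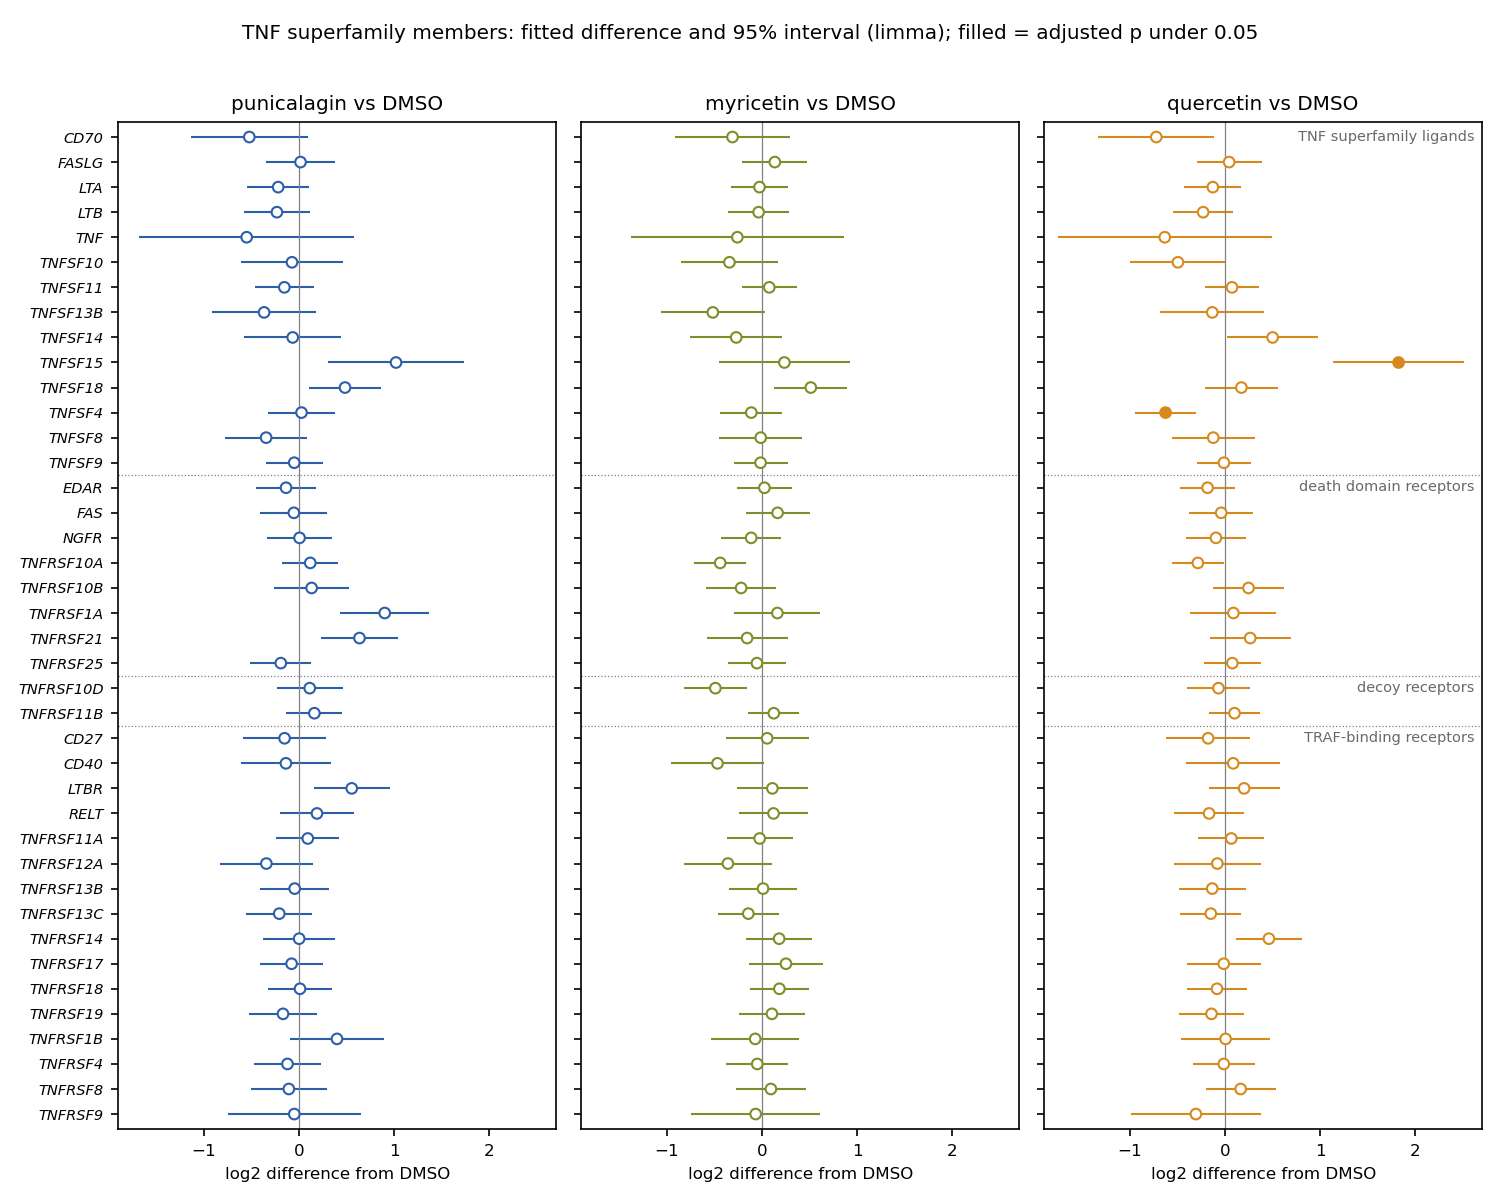
Fitted log2 difference from DMSO (horizontal axis, with its 95% interval in limma) of the 40 superfamily genes for punicalagin, myricetin and quercetin. Filled points have an adjusted p under 0.05, and these are TNFSF15 (1.82) and TNFSF4 (-0.63) with quercetin. The difference was under 0.5 in size for 34, 38 and 36 of the 40 genes.

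Among the 8 death domain receptors, TNFRSF1A, the main receptor of soluble TNF, showed the largest difference with punicalagin. It was 8.21, 7.97 and 7.93 with DMSO at passages 6, 7 and 8, 9.21, 9.12 and 8.48 with punicalagin at the same passages, 8.18 and 8.22 with myricetin at passages 7 and 8, and 8.00 and 8.25 with quercetin at passages 7 and 8. All punicalagin arrays lay above all 7 others. The difference from DMSO was 0.90 (SE 0.21, interval 0.43 to 1.37, 1.87-fold), with an adjusted p of 0.0662 without and 0.0368 with passage as a block. It was 1.00, 1.15 and 0.55 at passages 6, 7 and 8. The gene passed in 6 of 13 alternative fits, with adjusted p from 0.0162 to 0.266, so that its call depends on the fit. With myricetin the difference was 0.16 (interval -0.29 to 0.61) and with quercetin 0.09 (interval -0.36 to 0.54).

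TNFRSF21 (death receptor 6) was 7.78, 7.46 and 7.29 with DMSO at passages 6, 7 and 8, 8.24, 8.28 and 7.90 with punicalagin at the same passages, 7.58 and 7.12 with myricetin at passages 7 and 8, and 7.71 and 7.83 with quercetin at passages 7 and 8. The punicalagin arrays lay above all others here too, and the difference from DMSO was 0.64 (SE 0.18, interval 0.23 to 1.04, adjusted p = 0.133). The gene passed in 1 of 13 alternative fits, that without the DMSO array of passage 6 (adjusted p = 0.0470). Over these fits the adjusted p ran up to 0.419. TNFRSF10A (TRAIL receptor 1) was 6.56, 6.56 and 6.62 with DMSO at passages 6, 7 and 8, 6.65, 6.68 and 6.77 with punicalagin at the same passages, 6.17 and 6.11 with myricetin at passages 7 and 8, and 6.20 and 6.39 with quercetin at passages 7 and 8. The myricetin and quercetin arrays all lay below the 6 others, with differences from DMSO of -0.44 (SE 0.13, adjusted p = 0.236) and -0.29 (SE 0.13, adjusted p = 0.313). TNFRSF10B, the other full TRAIL receptor, ran from 7.48 to 8.12, TNFRSF25, the receptor of TNFSF15, from 6.06 to 6.58 and NGFR from 5.89 to 6.26. FAS lay below the lower quartile on every array and EDAR on 9 of 10.

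Of the decoy receptors, TNFRSF10D, which binds TRAIL, was 8.26, 8.40 and 8.04 with DMSO at passages 6, 7 and 8, 8.20, 8.45 and 8.38 with punicalagin at the same passages, 7.77 and 7.71 with myricetin at passages 7 and 8, and 8.06 and 8.27 with quercetin at passages 7 and 8. Both myricetin arrays were the lowest of the 10, with a difference from DMSO of -0.49 (SE 0.15, interval -0.82 to -0.16, adjusted p = 0.297). TNFRSF11B (osteoprotegerin, the decoy of RANKL) lay below the lower quartile of every array.

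The 16 receptors that bind TRAF adaptors held no call in any of the 6 comparisons. LTBR, the receptor of lymphotoxin and LIGHT, was 7.32, 7.12 and 7.15 with DMSO at passages 6, 7 and 8, 7.75, 8.05 and 7.45 with punicalagin at the same passages, 7.34 and 7.27 with myricetin at passages 7 and 8, and 7.34 and 7.46 with quercetin at passages 7 and 8. The punicalagin arrays of passages 6 and 7 were the 2 highest, and that of passage 8 lay just below the quercetin array of that passage. The difference of punicalagin from DMSO was 0.55 (SE 0.18, interval 0.16 to 0.95, adjusted p = 0.197). TNFRSF1B, the second receptor of TNF, was 9.69, 8.99 and 9.04 with DMSO at passages 6, 7 and 8, 9.59, 9.91 and 9.42 with punicalagin at the same passages, 9.15 and 9.19 with myricetin at passages 7 and 8, and 9.23 and 9.26 with quercetin at passages 7 and 8. Its punicalagin and DMSO arrays overlapped through the DMSO array of passage 6.

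TNFRSF14 (HVEM) was 7.26, 7.73 and 7.26 with DMSO at passages 6, 7 and 8, 7.46, 7.45 and 7.35 with punicalagin at the same passages, 7.61 and 7.59 with myricetin at passages 7 and 8, and 7.87 and 7.88 with quercetin at passages 7 and 8. The quercetin arrays were the highest, with a difference from DMSO of 0.46 (SE 0.16, adjusted p = 0.168). CD40, which macrophages use to receive help from T cells, ran from 5.92 to 6.94, TNFRSF9 (4-1BB) from 6.43 to 7.59, TNFRSF12A (the receptor of TWEAK) from 7.47 to 8.35 and RELT from 6.70 to 7.36, with the DMSO array of passage 6 at the top of CD40 and TNFRSF12A and at the bottom of RELT. TNFRSF11A (RANK), TNFRSF13B, TNFRSF13C, TNFRSF4, TNFRSF8, TNFRSF18, TNFRSF19 and CD27 each ran over less than 1 unit, and TNFRSF17 was below the lower quartile of every array. The median difference of the 16 receptors was -0.06, 0.03 and -0.05 with punicalagin, myricetin and quercetin.

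Groups that do not overlap were counted as a description. With punicalagin, 6 of the 40 genes were higher on every array than on any DMSO array (15%, against 8.39% of all clusters) and 4 were lower (10%, against 9.15%). With myricetin these counts were 3 (7.5%, against 13.3%) and 5 (12.5%, against 10.4%), and with quercetin 7 (17.5%, against 14.6%) and 7 (17.5%, against 17.2%).

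Myricetin and quercetin are flavonols that differ by a single hydroxyl group on the B ring, which myricetin has in addition. Their doses are not stated, so values are given side by side, and a difference may also be one of dose. Of the 40 genes, TNFSF15 alone was called between them (2.5%, against 1.7% of all clusters): it was 6.20 and 6.43 with myricetin and 7.85 and 7.96 with quercetin, a difference of -1.59 for myricetin minus quercetin (SE 0.34, interval -2.34 to -0.84, adjusted p = 0.0444). It passed in 3 of 10 fits that left out 1 array, with adjusted p up to 0.308. For TNFSF14 the difference was -0.77 (SE 0.24, interval -1.30 to -0.24, adjusted p = 0.154) and for TNFSF4 0.51 (SE 0.16, interval 0.16 to 0.87, adjusted p = 0.161). In all, 36 of the 40 genes differed by less than 0.5 between the flavonols, with a median SE of 0.18.

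Between punicalagin and myricetin 0 of the 40 genes passed in limma (0.528% of all clusters did), and 7 had an unadjusted p under 0.05 (17.5%, against 8.92%). The lowest adjusted p was that of TNFRSF10A, at 0.0800, with punicalagin higher by 0.56 (SE 0.13). TNFRSF10D was higher by 0.60 with punicalagin (SE 0.15, adjusted p = 0.116), TNFRSF21 by 0.79 (SE 0.19, adjusted p = 0.107) and TNFRSF1A by 0.74 (SE 0.21, adjusted p = 0.168).

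The adaptors and caspases that receptors recruit were 18 measured of 23 listed. With punicalagin 2 fell and none rose, with myricetin 1 fell, and with quercetin 3 fell. Over all clusters, 0.198% fell with punicalagin, 0.0707% with myricetin and 1.13% with quercetin. MLKL, which carries out necroptosis, fell with all 3 compounds. It was 5.84, 5.83 and 6.11 with DMSO at passages 6, 7 and 8, 5.15, 4.99 and 5.02 with punicalagin at the same passages, 5.06 and 5.26 with myricetin at passages 7 and 8, and 4.76 and 4.75 with quercetin at passages 7 and 8. The 7 treated arrays lay below all 3 DMSO arrays. The difference was -0.87 with punicalagin (SE 0.14, adjusted p = 0.0189), -0.77 with myricetin (SE 0.14, adjusted p = 0.0413) and -1.17 with quercetin (SE 0.14, adjusted p = 6.91e-04). The quercetin call held in all 15 alternative fits, the punicalagin call in 7 of 12 (adjusted p up to 0.102) and the myricetin call in 5 of 15 (adjusted p up to 0.477).

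TRAF1, an adaptor that NF-κB induces, fell by 1.25 with punicalagin (SE 0.17, adjusted p = 0.00827). It was 8.22, 8.44 and 7.93 with DMSO and 6.79, 7.12 and 6.92 with punicalagin, and the call was lost without the punicalagin array of passage 6 (adjusted p = 0.0599). With quercetin, RIPK3, the kinase that acts on MLKL, was 6.36, 6.75 and 6.75 with DMSO and 5.56 and 5.86 with quercetin, a difference of -0.91 (SE 0.18, adjusted p = 0.0157). CASP8, the caspase that death receptors activate first and that restrains necroptosis, was 7.40, 7.71 and 7.96 with DMSO and 6.96 and 6.86 with quercetin, a difference of -0.78 (SE 0.16, adjusted p = 0.0209). RIPK3 and CASP8 each passed in 6 of 10 fits that left out 1 array. Both were lost without either quercetin array, and also without the DMSO array of passage 7 or of passage 8. The median difference over the 18 genes was -0.25 with punicalagin, -0.11 with myricetin and 0.02 with quercetin.

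The kinases and ubiquitin enzymes between receptor and NF-κB were 18 measured of 20 listed. CYLD, a deubiquitinase that restrains NF-κB signalling, was the only one called against DMSO, with quercetin (1.13% of all clusters fell in that comparison). It was 6.65, 6.96 and 7.13 with DMSO and 6.20 and 6.32 with quercetin, a difference of -0.65 (SE 0.15, adjusted p = 0.0359), and passed in 3 of 10 fits that left out 1 array. The largest differences with punicalagin were -0.86 in TNIP1 (adjusted p = 0.0700) and -0.75 in MAP3K14 (adjusted p = 0.153), and with myricetin -0.61 in TANK (adjusted p = 0.195) and -0.53 in TNIP1 (adjusted p = 0.423). The medians were -0.26, -0.12 and 0.00.

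The genes that release TNF from the membrane or control its mRNA were 15, all measured. Among all clusters, 2.13% rose with punicalagin and 2.8% with quercetin. SPPL2A, a protease of the membrane that cleaves the stub of TNF, rose with punicalagin by 0.89 (SE 0.19, adjusted p = 0.0467). It was 8.67, 8.37 and 8.23 with DMSO and 9.36, 9.55 and 9.02 with punicalagin. RHBDF1 (iRhom1, a partner of the TNF sheddase ADAM17) rose with quercetin by 1.04 (SE 0.23, adjusted p = 0.0284) and FURIN, which activates ADAM17 among other proteins, by 0.90 (SE 0.22, adjusted p = 0.0401). These 2 were 7.34, 8.27 and 7.86 with DMSO and 8.76 and 8.95 with quercetin for RHBDF1, and 8.10, 7.85 and 7.51 with DMSO and 8.59 and 8.86 with quercetin for FURIN. SPPL2A passed in 2 of 6 fits that left out 1 array, RHBDF1 in 5 of 10 and FURIN in 3 of 10. ADAM17 itself differed by 0.56 with punicalagin (SE 0.20, adjusted p = 0.269). With myricetin none passed, and the largest differences were 0.48 in ZFP36L1 (adjusted p = 0.612) and 0.40 in RHBDF2 (adjusted p = 0.536).

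**Figure D3:**
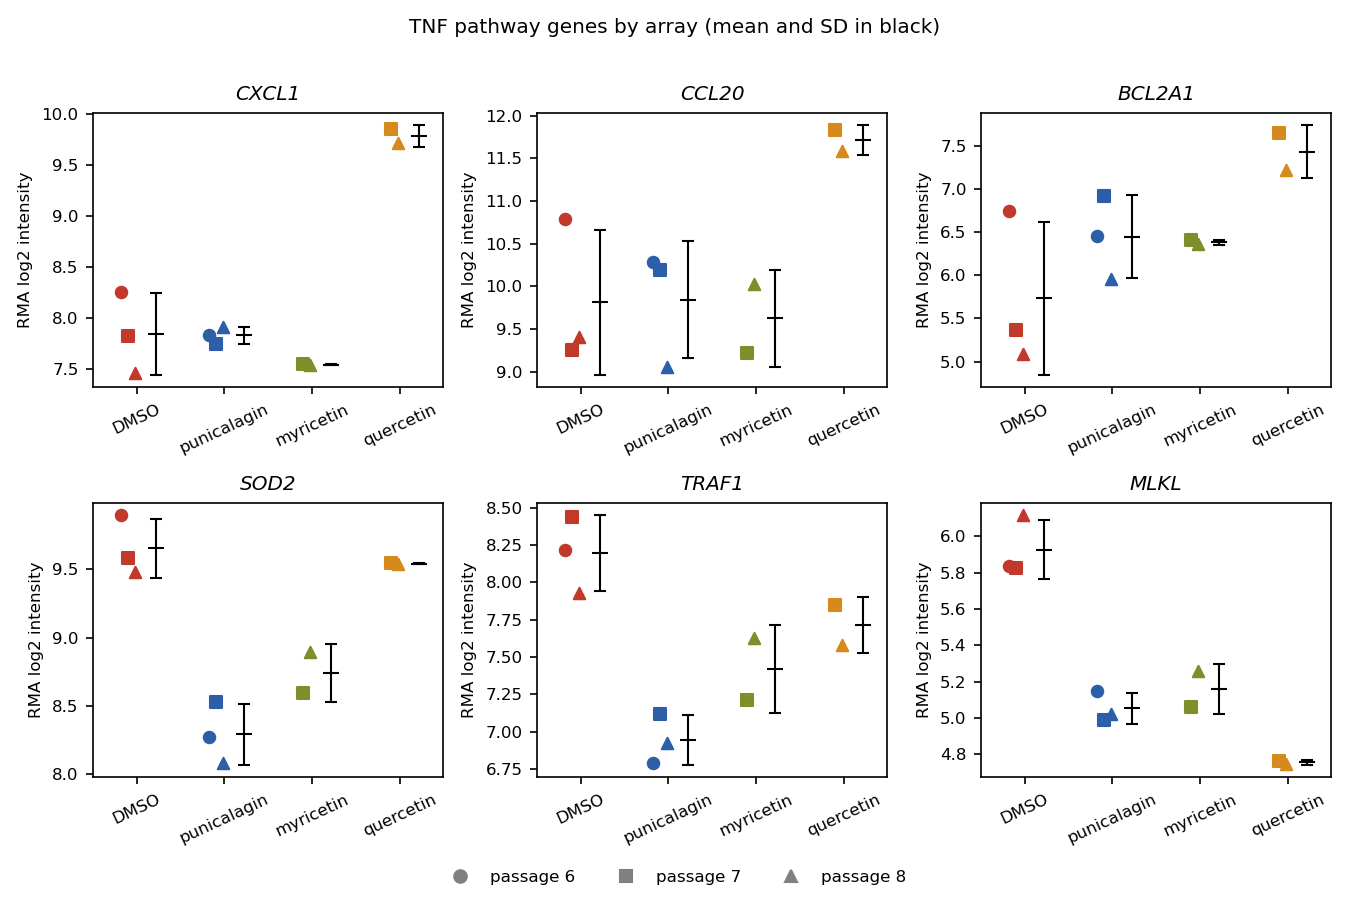
Level (RMA log2 intensity, vertical axis) of 6 genes that act in or answer to TNF signalling, on the 10 arrays by treatment, with the passage as the shape of the point and the mean and SD of each group in black. CXCL1 stands highest on the quercetin arrays (9.85 and 9.71), SOD2 and TRAF1 lowest on the punicalagin arrays, and MLKL below DMSO on every treated array.

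Of 24 genes that TNF is known to induce, all were measured. With punicalagin 4 fell and none rose, with myricetin none passed, and with quercetin 4 rose and none fell. Over all clusters, 2.13% rose and 0.198% fell with punicalagin, 0.438% rose and 0.0707% fell with myricetin, and 2.8% rose and 1.13% fell with quercetin. The median difference was -0.34 with punicalagin (17 of 24 negative), -0.29 with myricetin (22 of 24 negative) and 0.30 with quercetin (17 of 24 positive). The median of all clusters was -0.05, 0.00 and -0.04, and their shares by sign are not given here. In some listed genes the DMSO array of passage 6 was far above the other DMSO arrays. TNFAIP6 was 6.51, against 4.67 and 4.38, and PTGS2 was 6.30, against 4.70 and 4.17. Myricetin has no array of that passage, and these medians and sign counts are not given without that DMSO array. The list includes inhibitors and transcription factors of NF-κB, chemokines, and genes that protect the cell.

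With punicalagin, SOD2, the mitochondrial superoxide dismutase, was 9.90, 9.59 and 9.48 with DMSO and 8.27, 8.53 and 8.08 with punicalagin, a difference of -1.36 (SE 0.17, 2.57-fold, adjusted p = 0.00596), and it passed in all 13 alternative fits. NFKBIA, the inhibitor IκBα that NF-κB induces, was 10.57, 10.29 and 10.04 with DMSO and 9.14, 9.38 and 9.42 with punicalagin, a difference of -0.98 (SE 0.17, adjusted p = 0.0220). NFKB1 fell by 0.80 (SE 0.17, adjusted p = 0.0456) and TNFAIP2 by 0.79 (SE 0.16, adjusted p = 0.0431). In each of these 4 genes the punicalagin arrays lay below all DMSO arrays. NFKBIA passed in 3 of 6 fits that left out 1 array and NFKB1 and TNFAIP2 in 0 of 6 (adjusted p up to 0.190 and 0.201), and with passage as a block TNFAIP2 was not called (adjusted p = 0.0660).

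With quercetin, CXCL1, a chemokine that attracts neutrophils, was 8.26, 7.83 and 7.46 with DMSO and 9.85 and 9.71 with quercetin, a difference of 1.93 (SE 0.20, 3.82-fold, adjusted p = 2.66e-04), and it passed in all 16 alternative fits. CXCL10 was 3.29, 3.35 and 3.17 with DMSO and 4.14 and 4.32 with quercetin, a difference of 0.96 (SE 0.14, adjusted p = 0.00235), lost without the quercetin array of passage 8 (adjusted p = 0.0638). Its DMSO levels lay below the lower quartile of their arrays. CCL20 was 10.79, 9.25 and 9.41 with DMSO and 11.83 and 11.59 with quercetin, a difference of 1.90 (SE 0.46, adjusted p = 0.0449). BCL2A1, which restrains apoptosis, was 6.75, 5.37 and 5.09 with DMSO and 7.65 and 7.21 with quercetin, a difference of 1.70 (SE 0.41, adjusted p = 0.0448). In CCL20 and BCL2A1 the DMSO array of passage 6 lay more than 1 unit above the other DMSO arrays, and each passed in 2 of 10 fits that left out 1 array. Without that DMSO array the difference was 2.38 in CCL20 and 2.20 in BCL2A1. In the same fit 9 genes of the list passed, all higher, and with passage as a block 6 did, with CXCL2 (adjusted p = 0.0465) and CXCL3 (adjusted p = 0.0374) added. The shares of all clusters that rose in these fits are not given here, so the counts of 9 and 6 cannot be set against them.

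With myricetin the largest differences were -1.07 in CXCL8 (SE 0.23, adjusted p = 0.0826) and -0.91 in SOD2 (SE 0.18, adjusted p = 0.0522), and neither passed. Between myricetin and quercetin 4 of the 24 genes were lower with myricetin and none was higher, with a median difference of -0.64, against 0.04 over all clusters, of which 1.16% were lower with myricetin. All 4 are chemokines. As myricetin minus quercetin, CXCL1 differed by -2.24 (SE 0.22, adjusted p = 6.36e-04), CXCL2 by -2.04 (SE 0.35, adjusted p = 0.0148), CXCL8 by -1.40 (SE 0.25, adjusted p = 0.0209) and CXCL10 by -1.16 (SE 0.15, adjusted p = 0.00360). These 4 were named after their values were seen. Between punicalagin and quercetin 7 of the 24 were lower with punicalagin, as were 1.85% of all clusters, and none was higher, with a difference of -1.25 in SOD2 (SE 0.18, adjusted p = 0.00361).

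**Figure D4:**
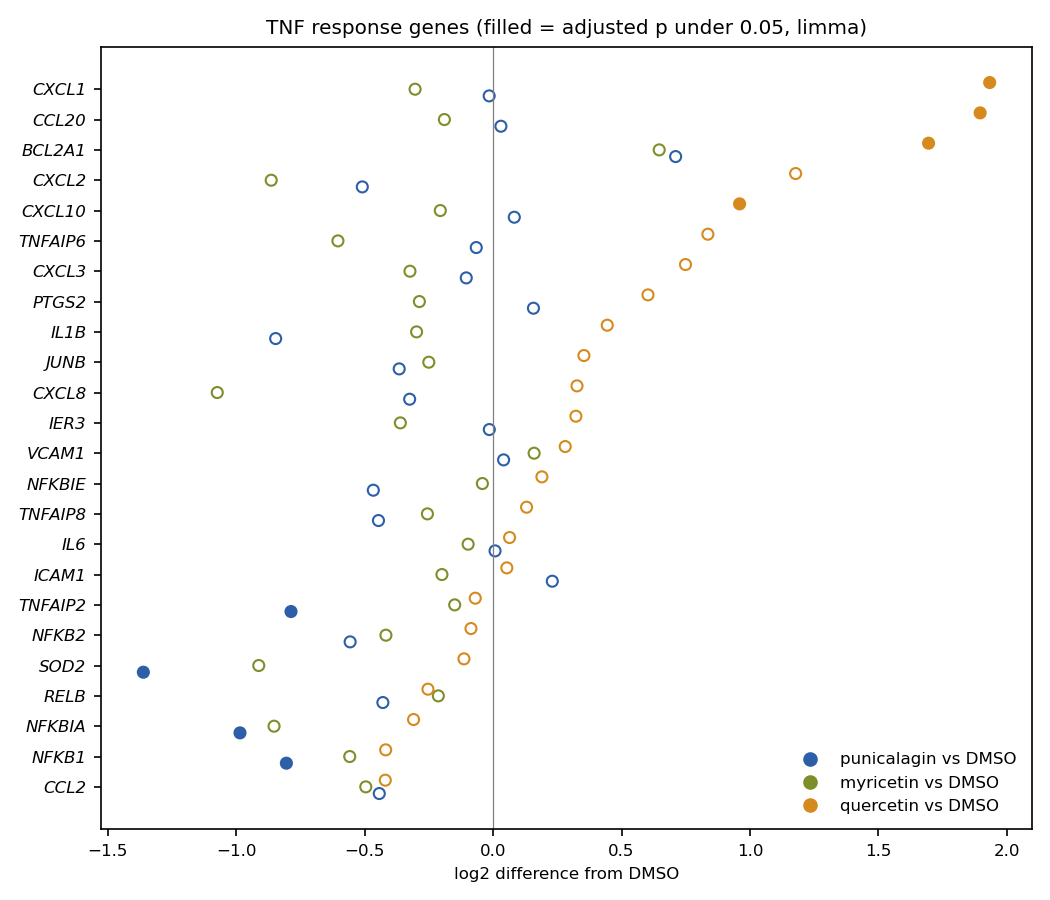
Fitted log2 difference from DMSO (horizontal axis) of the 24 TNF response genes, with 1 point for each compound and filled points where the adjusted p in limma was under 0.05. CXCL1 (1.93), CCL20 (1.90), BCL2A1 (1.70) and CXCL10 (0.96) are filled with quercetin, and SOD2 (-1.36), NFKBIA (-0.98), NFKB1 (-0.80) and TNFAIP2 (-0.79) with punicalagin.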

How the data were processed

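RNA of the 10 THP-1 cultures was measured on 1 array each. The authors deposited log2 intensities per transcript cluster, made by RMA (background correction, quantile normalization and a summary over probes). Their software, by the submitters' processing notes, was Affymetrix Expression Console and Partek 7.0. It is not stated whether all arrays were normalized together. RMA pulls arrays to 1 distribution, so a change shared by most genes would not show. No normalization was added.

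Differences were fitted with limma 3.58.1 (R 4.3.3) and adjusted by Benjamini-Hochberg over the 21214 clusters with a symbol, with a threshold of 0.05. Punicalagin and DMSO were compared on their 6 arrays, and the other comparisons on all 10 arrays. The script was tested on simulated data. The labels call the arrays biological replicates of 3 passages of 1 line. Arrays of 1 passage are a pair by the labels. The deviations of their DMSO and punicalagin arrays correlated at 0.362, -0.0967 and 0.319 at passages 6, 7 and 8. Between different passages the correlation ran from -0.442 to 0.331. For DMSO and a flavonol at the same passage it was -0.091 with myricetin and 0.0242 with quercetin. Full values are given for TNF, for each member called, and for each that differed from DMSO by 1 or more. Of every other list, up to 4 called genes with the largest change, or 2 where none was called, are named. Further members and genes were named after their values were seen. The members and lists were chosen with earlier results of these data known. Promoters are those of RefSeq.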

Additional observations from a re-analysis of the deposited data

How the results depend on the processing

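With 2 or 3 arrays a group the counts of superfamily genes called are small and move with the fit. The number of arrays limits the precision. The share of all clusters called in each of the other fits below is not given here. The counts from those fits therefore cannot be read as particular to these genes. Against DMSO, punicalagin gave 0 calls, but 2 with passage as a replicate block (TNFRSF1A and TNFSF15), 2 on passages 7 and 8 alone (TNFRSF1A and TNFSF18), 1 where dim clusters were left out and 1 with all 10 arrays in the fit (TNFRSF1A both times), and 0 to 2 when 1 array was left out. Myricetin gave 0 calls, 1 on passages 7 and 8 alone (TNFSF13B) and 0 to 1 when 1 array was left out. Quercetin gave 2 calls, 1 where dim clusters were left out (TNFSF4 was not tested there) and 1 when all clusters of the table were tested, and 0 to 3 when 1 array was left out. Between myricetin and quercetin the 1 call became 2 on passages 7 and 8 alone (TNFSF14 and TNFSF15), 0 when all clusters were tested and 0 to 2 when 1 array was left out. Between punicalagin and myricetin the range was 0 to 2 when 1 array was left out. Between punicalagin and quercetin the 1 call became 0 when all clusters were tested, and its range was 0 to 2. In the other comparisons the block for passage left the count of superfamily genes called unchanged. The difference of TNF from DMSO ran from -0.889 to 0.0791 with punicalagin when 1 array was left out, positive without the DMSO array of passage 6. With myricetin it ran from -0.616 to 0.370 when 1 array was left out, positive without that DMSO array (0.370) and without the myricetin array of passage 7 (0.0964), and it was 0.22 under the passage block and 0.37 on passages 7 and 8 alone, with or without the block. With quercetin it ran from -0.967 to -0.00424 when 1 array was left out, the value nearest 0 being that without the DMSO array of passage 6, and it was -0.15 under the passage block. The cause of these changes was not tested.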
